A study of Brassica rapa with 28 samples.

Results

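The genes described here are the first 424 gene IDs of the A03 series of Brassica rapa, BraA03000001 to BraA03000424. IDs were kept where the mean level was at least 1 CPM (counts scaled to a common library total) over all 28 libraries, computed from the column totals. This left 229 members of 48826 gene IDs in the table, 81 in the first ID range (IDs 1 to 124) and 148 in the second (IDs 125 to 424). The run was chosen by the measured genotype difference in these libraries, its genes being lower in a mutant than in wild-type plants, so that difference is described below without a test. The other 195 IDs of the run were under the level threshold, and 83 of them had 0 counts in every library. The lowest member was BraA03000149, with a mean of 1.03 CPM, and the highest ID just outside was BraA03000345, with 0.979 CPM. All 229 members passed the filter on low counts, so the counts below cover every member. The files do not pair these IDs with gene names, so no gene function is given, and whether ID order follows order along a chromosome is not given in the sources used here.

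RNA was sequenced from leaves of wild-type R-o-18 plants and of the BrphyB-3 mutant in the same strain, both from the RevGenUK resource, a collection of mutagenised plants. It is not stated whether the mutant, which is 1 line, had been crossed back to the wild type. Each library pooled leaf punches of 28 mm2 from 3 plants, and such a set of plants is called a pool here. The 4 wild-type pools are numbered 3 to 6 and the 3 mutant pools 3 to 5, and each pool was sampled at 4 stages, giving 8 groups. Plants of both genotypes were 3 weeks old at the first sampling, grew in days of 16 h light and 8 h dark, and were sampled at 5 h into the light period. The first leaf stayed uncovered and gave the pre sample and, 24 h later, the 24hr sample. The dark sample came from a second leaf, wrapped in foil since the pre sampling and opened 48 h after the 24hr sampling. The recovery sample came from that second leaf 24 h later. Dark against pre therefore also compares a second leaf with a first leaf, and a later with an earlier day, which cannot be told apart from the darkness. The same holds for recovery against pre.

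Phytochrome B is a plant photoreceptor that is switched to its active form by red light and back by far-red light or, slowly, in darkness. The active form moves to the nucleus and promotes the removal of transcription factors that drive growth in the dark. A leaf kept in darkness stops photosynthesis, draws on its reserves and, if the darkness lasts, begins to age, and many transcripts that change in darkness return when light is given back.

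Total counts per library ranged from 4928822 to 14159657, and the members took from 0.68% to 1.66% of them. Levels below are CPM scaled by TMM factors, log2 differences are from one model over all 24992 IDs tested, and a change was called at an adjusted p under 0.05 by the quasi-likelihood test of edgeR (Benjamini-Hochberg, over those IDs). Library labels could not be checked by the mutated gene or by leaf markers, which are not named in the files.

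The members were lower in the mutant than in the wild type in both ID ranges and at every stage, by more in the second range. Averaged over the 4 stages, the log2 difference of mutant against wild type, called the offset here, had a median of -0.42 in the first range (quartiles -0.54 and -0.27) and of -0.75 in the second (quartiles -0.91 and -0.60). The median over all IDs tested was 0.01. The offset was below 0 for 75 of 81 members of the first range and 145 of 148 of the second, against 47.4% of all IDs tested. It was below 0 at all 4 stages for 52 and 126 members, against 9.89% of all IDs. By stage, the first-range medians were -0.33, -0.39, -0.40 and -0.44 for pre, 24hr, dark and recovery in that order. The second-range medians were -0.74, -0.76, -0.70 and -0.77. Since these values chose the members, they support nothing further.

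Summed over the 81 members of the first range, the level at pre was 4180 ± 1122 CPM (SD, n = 4) for wild-type libraries and 3099 ± 300.1 CPM (SD, n = 3) for mutant ones. Over the 148 members of the second range it was 7490 ± 852 CPM (SD, n = 4) and 4432 ± 300.5 CPM (SD, n = 3). The wild-type spread was wide for the first range. Its highest wild-type sum at pre was 5143 CPM and its lowest 2663 CPM, and the mutant sums, from 2922 to 3445 CPM, lay between them. In the second range the lowest wild-type sum at pre, 6480 CPM, was above the highest mutant sum, 4631 CPM.

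**Figure D1:**
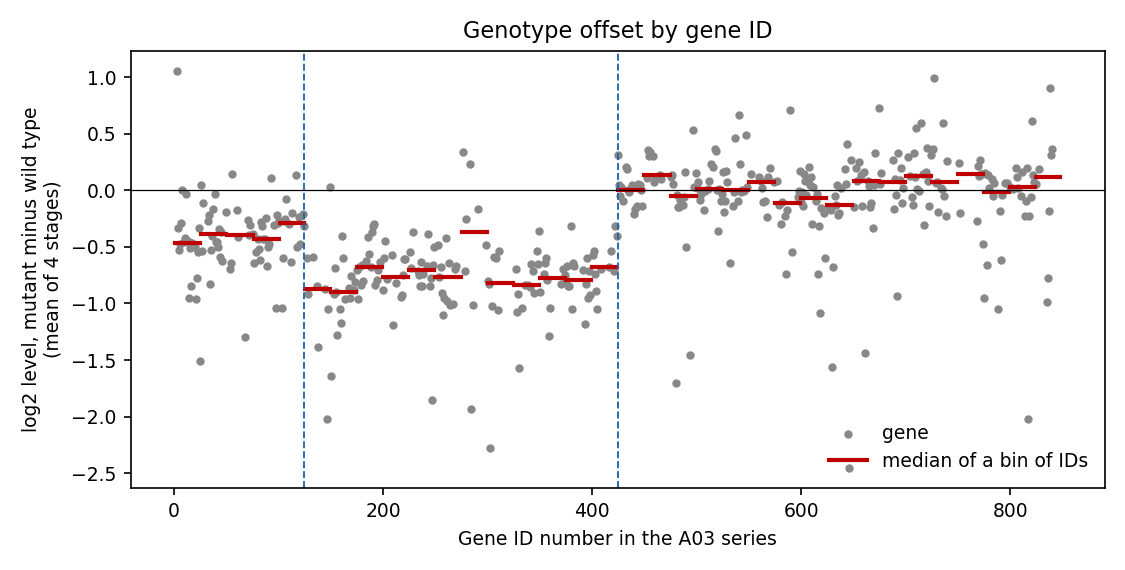
Offset (log2 level, mutant minus wild type, mean of 4 stages) of each gene of the run and of the next A03 IDs, up to ID 848, by ID number. Points are genes, red bars are medians of bins of 25 IDs, and dashed lines mark the ends of the first and second ID ranges. Bin medians lie between -0.47 and -0.29 in the first range, between -0.90 and -0.37 in the second, and near 0 from ID 425 on.

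The last member of the first range, BraA03000124, had an offset of -0.31, and the first of the second range, BraA03000127, had -0.60. The last member of the run, BraA03000424, had -0.40, and BraA03000425, the first gene after it, had 0.31. When the tested IDs were cut into 890 blocks of 25 successive genes, the 9 blocks made of members alone had block medians of the offset from -0.84 to -0.32, and blocks with no member had -0.21 to 0.21. The run was chosen by this offset, so the separation restates that choice. Among members the offset showed little relation to expression level. Pearson's r between offset and mean log2 CPM was 0.05 in the first range and 0.09 in the second, across genes, which are not independent replicates. The 24 tested IDs of the run under the level threshold are not in these values, and their median offset was -1.03.

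The wild-type pools differed among themselves in the first range, and one of them was as low as the mutant. Relative to the mean of the wild-type libraries of each stage, the median log2 level of first-range members, averaged over stages for each gene, was -0.47 in wild-type pool 3, -0.12 in pool 6, 0.22 in pool 4 and 0.35 in pool 5. The mutant pools stood at -0.36, -0.40 and -0.38. Wild-type pool 3 was thus at or below the mutant pools, and pools 4 and 5 were well above them. In the second range the wild-type pools were closer together, at -0.18, -0.06, 0.08 and 0.12 for pools 3, 6, 4 and 5, and the mutant pools stood at -0.71, -0.72 and -0.76. Over the 238 genes of the A03 IDs that follow the run, 425 to 848, all 7 pools were between -0.02 and 0.08.

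The low first-range level of wild-type pool 3 was seen in each of its 4 libraries, with medians of -0.63 (pre), -0.42 (24hr), -0.42 (dark) and -0.40 (recovery). Wild-type pool 5 was high in each of its own, with 0.33, 0.27, 0.42 and 0.52. Pool 3 was the lowest of the 4 wild-type pools for 68 of 81 first-range members, 84% of them, against 35.4% of all IDs tested. Pool 5 was the highest for 54 of 81, 66.7% of them, against 19.7% of all IDs. Pool 3 exceeded all 3 mutant pools for 6 first-range members, where 19.2% of all IDs tested did so. Pools 4, 5 and 6 exceeded them for 66, 69 and 43 members, against 23.9%, 20.1% and 23.9% of all IDs. In the second range, pools 3, 4, 5 and 6 exceeded all 3 mutant pools for 117, 134, 133 and 128 of 148 members.

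**Figure D2:**
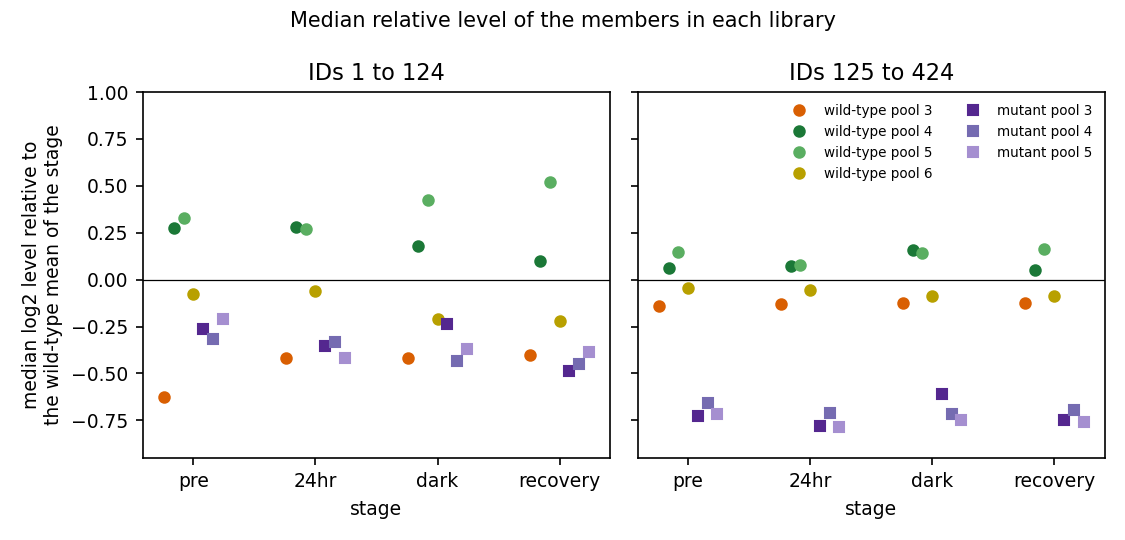
Median log2 level of the members in each of the 28 libraries, relative to the mean of the wild-type libraries of the same stage, for IDs 1 to 124 (left) and 125 to 424 (right). Circles are wild-type and squares mutant pools. On the left, wild-type pool 3 lies between -0.63 and -0.40, at or below most mutant libraries, and on the right every mutant library lies below every wild-type library.

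Along the IDs, the wild-type pools were farther apart over the first range than over most of the second. In bins of 25 IDs, wild-type pool 3 was between -0.56 and -0.29 across the first range. In the second range it was at -0.13 over IDs 125 to 149 and -0.01 over IDs 150 to 174, then at -0.29, -0.20 and -0.08 in the next 3 bins. It was at -0.43 over IDs 250 to 274, -0.30 over IDs 275 to 299 and -0.28 over IDs 300 to 324, and between -0.19 and -0.08 in the last 4 bins. The range between the highest and lowest wild-type pool, taken over block medians, was widest of all 890 blocks in 4 blocks of the run, at 0.86, 0.83, 0.79 and 0.68. The widest block outside the run had 0.37, and the median outside was 0.11. The mutant pools showed no such separation, with a range of 0.03 to 0.24 in the blocks that hold members. The cause of the separation of the wild-type pools was not tested.

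**Figure D3:**
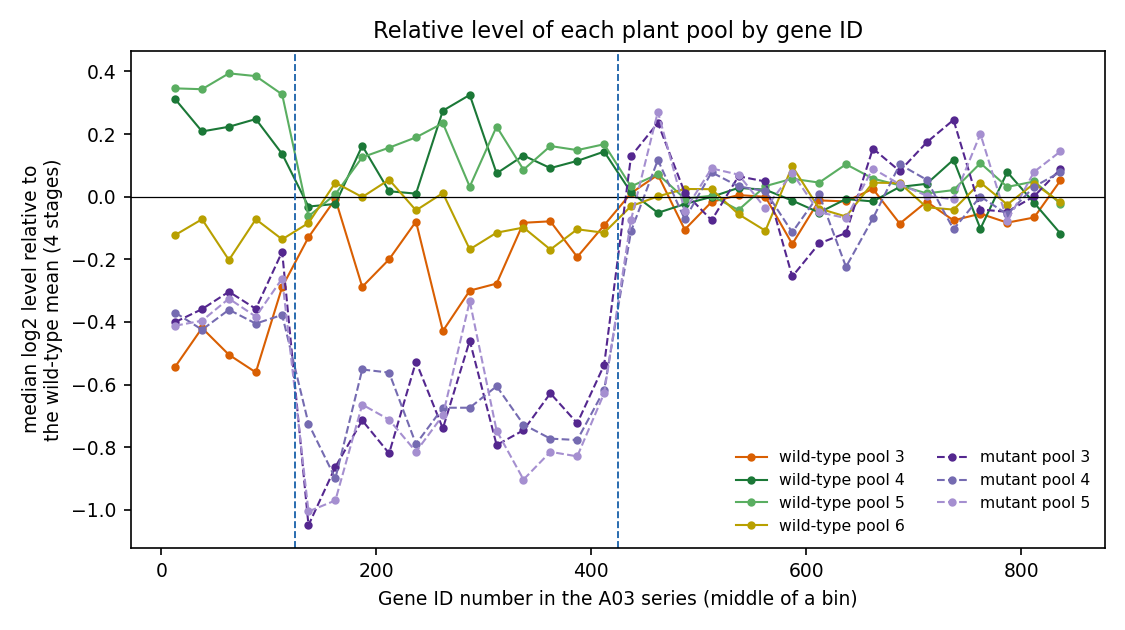
Median log2 level of each of the 7 plant pools relative to the wild-type mean, averaged over 4 stages, in bins of 25 A03 IDs. Solid lines are wild-type and dashed lines mutant pools, and vertical lines mark the ends of the ranges. Wild-type pools 3 and 5 are apart over the first range and all pools lie close to 0 after ID 424.

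Because of this spread, the first-range offset depended on which wild-type pools entered it. Without wild-type pool 3 the first-range median was -0.55, and without pool 5 it was -0.27, whereas the second-range median was -0.79 without pool 3 and -0.71 without pool 5. Complete separation of the libraries moved more. At pre, 5 first-range members had every mutant library below every wild-type library, against 3.61% of all IDs tested, followed by 9 (4.03%) at 24hr, 11 (3.17%) in darkness and 10 (4.4%) on recovery. Without wild-type pool 3 these counts were 34, 36, 30 and 24, with 7.32%, 7.19%, 6.67% and 7.21% of all IDs, and without pool 6 the count at recovery was 17 (6.3% of all IDs). In the second range all libraries were separated in this direction for 76, 86, 77 and 79 of 148 members at the 4 stages, and without pool 3 for 101, 96, 90 and 88.

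There were 9 exceptions to the lowering, 6 in the first range and 3 in the second. BraA03000003 was the one member above 0 at all 4 stages, with an offset of 1.06. Its level at pre was 0, 2.40, 1.138 and 1.46 CPM in wild-type pools 3 to 6 and 3.19, 3.15 and 2.84 CPM in mutant pools 3 to 5. At recovery it was 0.206, 0.477, 1.22 and 0.626 CPM in the wild type and 1.36, 1.61 and 1.53 CPM in the mutant. The mutant libraries were above all wild-type libraries at pre and recovery, an order found in 3.93% and 3.01% of all IDs, and also at dark, found in 3.69%. At 24hr the genotypes overlapped, with wild-type levels up to 2.39 CPM and mutant levels down to 1.95 CPM. The other first-range exceptions were BraA03000055 (0.15), BraA03000117 (0.14), BraA03000093 (0.11), BraA03000026 (0.05) and BraA03000008 (0.00). Those of the second range were BraA03000276 (0.34), BraA03000283 (0.23) and BraA03000149 (0.03). These 8 were below 0 or at 0 in at least 1 stage. Apart from BraA03000117 and BraA03000149, the exceptions are named because they are the members at or above 0, chosen after their values were seen.

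Among members averaging at least 10 CPM over the libraries of a genotype, BraA03000117 had the highest offset of the first range and BraA03000291 that of the second, -0.17. BraA03000117 had dark levels of 17.4, 36.1, 34.1 and 27.0 CPM in wild-type pools 3 to 6 and 30.6, 20.2 and 20.8 CPM in the mutant pools, which overlap. Its offset was between -0.10, without mutant pool 3, and 0.36, without mutant pool 4. BraA03000291 at pre had 16.5, 33.6, 53.8 and 21.3 CPM in the wild type and 15.9, 14.2 and 142 CPM in the mutant, so that mutant pool 5 alone was high. Without that pool its offset was -0.77, without wild-type pool 4 it was 0.05, and with the replicate number as a block it was -0.44.

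The lowest offsets in the same class were those of BraA03000025 in the first range and BraA03000302 in the second. They were -1.51 with an SE of 0.29 and -2.28 with an SE of 0.39 in that order. These SEs treat the libraries of a pool as independent, though genotype is replicated by pools alone. They may be too small, and the genes were picked as the lowest. BraA03000302 had 73.5, 97.9, 126 and 81.8 CPM at pre in wild-type pools 3 to 6 and 17.6, 28.2 and 21.9 CPM in mutant pools 3 to 5. At dark it had 0.401, 17.3, 2.76 and 1.96 CPM in the wild type and 0.346, 6.08 and 0.343 CPM in the mutant. The genotypes were apart at pre and overlapped at dark. BraA03000025 had 4.29, 12.6, 15.4 and 23.2 CPM at pre in the wild type and 2.05, 3.23 and 5.86 CPM in the mutant, with wild-type pool 3 inside the range of the mutant. In all, 4 of 81 members of the first range and 25 of 148 of the second had an offset below -1, against 535 of the 24992 IDs tested.

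In darkness the members rose and fell in numbers close to those of all genes, in both genotypes. In the wild type, 21 first-range members rose and 21 fell from pre to dark, and 42 and 48 of the second range did so, where 29.1% of all IDs tested rose and 30.3% fell. In the mutant, 16 rose and 24 fell in the first range and 39 and 44 in the second, against 26.6% and 28.9% of all IDs. Calls were made in the same direction in both genotypes for 14 rising and 20 falling members of the first range and for 33 and 40 of the second, where 22.7% and 24.7% of all IDs were. No member was called in opposite directions, and only 14 of all 24992 IDs tested were. Calls in 1 genotype alone were made for 14 members of the first and 27 of the second range, against 19.9% of all IDs. Such calls do not show that the genotypes differed. Median log2 changes in the wild type were 0.04 in the first and -0.19 in the second range, or -0.18 in the second with members at 0 counts set to a bound, and the median over all IDs was -0.01. In the mutant they were 0.07 and -0.21, or -0.20 with the bound, against -0.08.

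On return to light the members again rose and fell in numbers close to those of all genes. From dark to recovery, 24 first-range members rose and 20 fell in the wild type, and 51 and 43 of the second range, where 29.9% of all IDs rose and 28.6% fell. In the mutant, 24 rose and 21 fell in the first range and 49 and 39 in the second, against 28% and 26.6%. In both genotypes alike, 20 members rose and 17 fell in the first range. In the second range 40 rose and 37 fell, where 23.3% and 22.4% of all IDs did. No member was called in opposite directions, and only 15 of all 24992 IDs tested were. Dark against pre and recovery against dark share the dark libraries, so their likeness is not given as a result.

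**Figure D4:**
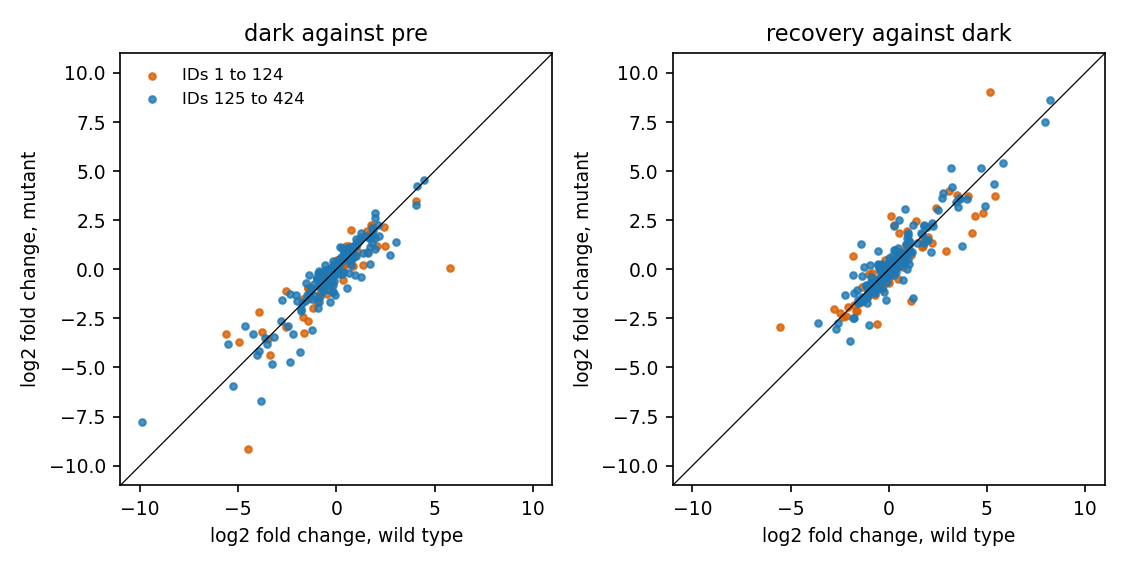
Log2 fold change of each of the 229 members in the mutant against that in the wild type, for dark against pre (left) and recovery against dark (right). Orange points are IDs 1 to 124, blue points IDs 125 to 424, and the line marks equal change. Points follow the line in both ranges, and the farthest from it on the left is BraA03000085, at 5.79 (wild type) and 0.07 (mutant).

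The stage changes could be set side by side between the genotypes, which have separate libraries. Across members, Pearson's r between the wild-type and mutant log2 change was 0.837 in the first and 0.919 in the second range for dark against pre, and 0.876 over all IDs tested. For recovery against dark it was 0.846, 0.918 and 0.866. These values are across genes, which are not independent replicates.

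The rule for named members gave 4 genes with large dark responses. BraA03000032, in the first range, rose from 5.51, 5.63, 6.60 and 6.21 CPM at pre to 102, 83.3, 103 and 109 CPM at dark in wild-type pools 3 to 6. In mutant pools 3 to 5 it rose from 7.77, 6.81 and 5.58 to 45.5, 92.9 and 83.4 CPM. All dark libraries were above all pre libraries in each genotype, which the rule for named members required. The dark levels overlapped between genotypes. The log2 change was 4.05 (SE 0.37, adjusted p = 2.9e-09) in the wild type and 3.45 (SE 0.41, adjusted p = 2.6e-07) in the mutant, by edgeR. At recovery it fell to 10.6, 33.7, 18.1 and 24.2 CPM in the wild type and to 9.09, 17.2 and 16.9 CPM in the mutant, log2 changes of -2.20 and -2.36 (adjusted p = 4.7e-06 and 1.8e-05).

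BraA03000090, in the first range, fell from 58.2, 57.6, 48.0 and 34.3 CPM at pre to 1.28, 8.22, 6.09 and 4.00 CPM at dark in the wild type. In the mutant it fell from 54.2, 34.0 and 43.1 CPM to 1.56, 3.27 and 1.37 CPM. Wild-type pool 3 was the lowest of all 7 libraries at dark and the highest at pre. The log2 changes were -3.39 (SE 0.40, adjusted p = 1.8e-07) and -4.39 (SE 0.50, adjusted p = 1.7e-07) by edgeR. It rose again at recovery, by 3.07 and 3.97 on the log2 scale (adjusted p = 6.7e-07 and 5.5e-07).

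BraA03000209, in the second range, rose from 0.204, 1.20, 2.28 and 1.95 CPM to 36.7, 15.6, 27.8 and 51.0 CPM in the wild type, where the lowest of these values was 1 count. In the mutant it rose from 0.655, 0.936 and 0.662 CPM to 2.59, 26.3 and 24.2 CPM, with pool 3 lower than the other two at dark. The log2 changes were 4.45 (SE 0.70, adjusted p = 9.8e-06) and 4.53 (SE 0.85, adjusted p = 9.6e-05) by edgeR. At recovery BraA03000209 was lower again, at 2.57 to 18.5 CPM in the wild type and 0.170 to 2.30 CPM in the mutant. The lowest mutant value was 2 counts. All wild-type recovery values were above those at pre, and the gene was called in recovery against pre in the wild type.

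BraA03000333, in the second range, had 9.19, 7.48, 17.7 and 10.5 CPM at pre in the wild type and 0.818, 2.30 and 4.73 CPM in the mutant, and 0 counts in all 7 dark libraries. Against a floor of 3 counts per library it was at least 35.2-fold lower at dark than at pre in the wild type and at least 8.88-fold lower in the mutant (adjusted p = 1.0e-07 and 0.00012 by edgeR). At recovery it was detected again, at 2.78, 4.29, 2.13 and 2.59 CPM in the wild type and 1.36, 3.43 and 1.53 CPM in the mutant. The wild-type values were all below the lowest wild-type value at pre, 7.48 CPM. The mutant values lay within the mutant range at pre. With both genotypes at 0 in darkness, no offset can be given for that stage.

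**Figure D5:**
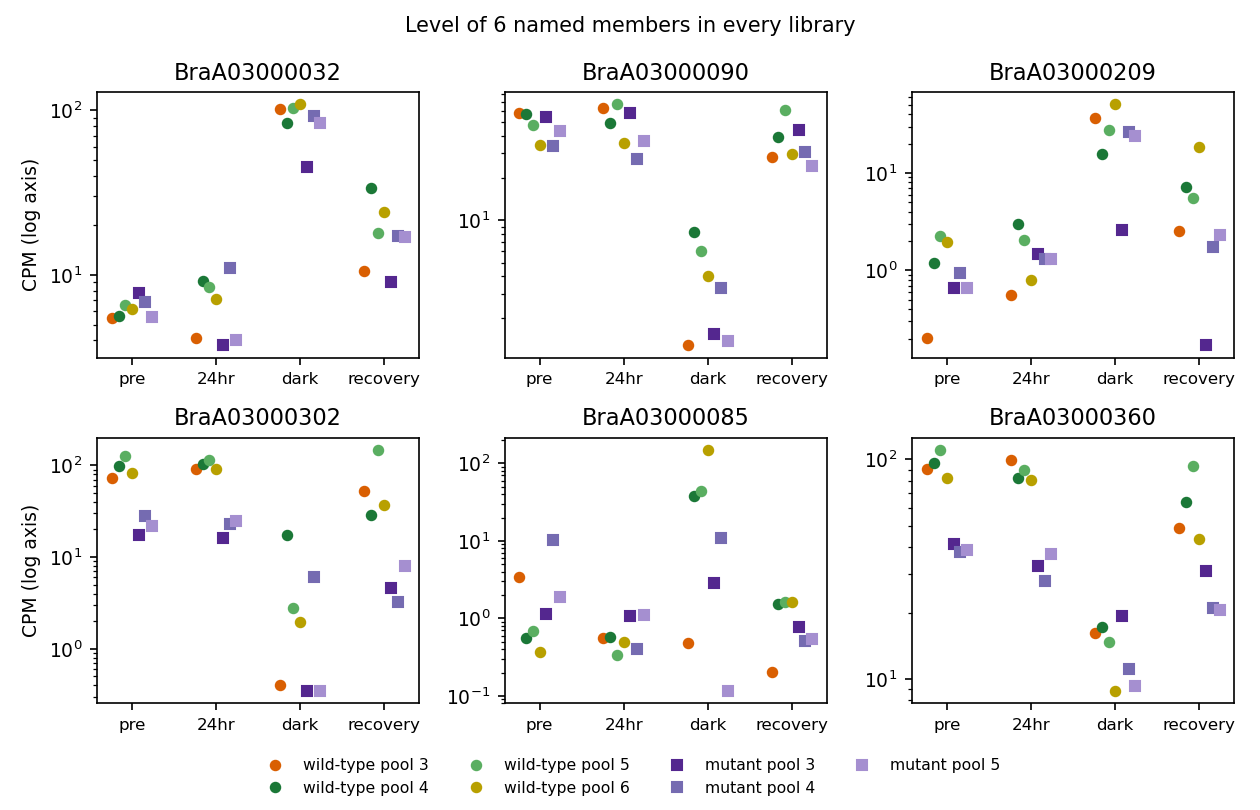
CPM of 6 named members in each of the 28 libraries by stage, on log axes that differ between panels. Circles are wild-type and squares mutant pools. BraA03000032 and BraA03000209 are high and BraA03000090 is low at dark in both genotypes, BraA03000085 is high at dark in wild-type pools 4 to 6 alone, and BraA03000302 and BraA03000360 are apart between genotypes at pre and overlap at dark.

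Few members differed between recovery and pre, which also differ in leaf and day. In the wild type 1 member of the first range was higher and none was lower, and in the second range 4 were higher and 2 lower, where 2.7% of all IDs were higher and 1.73% lower. In the mutant 1 member of the first range was lower and 2 of the second were higher, against 0.932% higher and 1.25% lower of all IDs. With the plant pool as a block, 21 wild-type and 5 mutant calls were made among the members, where 6.87% and 3.38% of all IDs were called under the same block. Called as higher in both genotypes were 2 members, where 0.54% of all IDs were, BraA03000127 and BraA03000149, named after their values were seen for this contrast. BraA03000127 went from 73.7, 84.4, 86.7 and 85.4 CPM at pre to 187, 184, 227 and 206 CPM at recovery in the wild type, and from 39.1, 62.6 and 65.2 to 134, 131 and 178 CPM in the mutant. The groups did not overlap, and the log2 changes were 1.28 (SE 0.21, adjusted p = 0.0025) and 1.41 (SE 0.25, adjusted p = 0.0052) by edgeR. BraA03000149 rested on 1 high library in each genotype, at 11.3 CPM in wild-type pool 4 and 12.4 CPM in mutant pool 4, with all other libraries under 2 CPM. BraA03000022, the third call in the mutant, fell from 2.54, 1.62 and 0.567 to 0.0850, 0.292 and 0.109 CPM.

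Between 24hr and pre, both on the uncovered leaf, 0 members passed the threshold in either genotype by edgeR, as did 0% of all IDs tested. At an unadjusted p under 0.05 the wild type had 2 such members, against 2.62% of all IDs, and the mutant 7, against 3.42%. DESeq2 called 1 member in the wild type, BraA03000283, which was the 1 call among the 24926 IDs it gave an adjusted p (0.00401%), and 0 in the mutant, with 0% of all IDs. BraA03000283, an exception named above, had 1.02 CPM in wild-type pool 3 at pre and 0 counts in the other 7 wild-type libraries of these stages, so the call rests on 1 library.

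No genotype difference in the stage responses was detected among the members. The test asked, for each member, whether the log2 stage change differed between mutant and wild type. For dark against pre 0 members passed the adjusted threshold by edgeR, where 0.012% of all IDs tested did, and 11 of 229 had an unadjusted p under 0.05, 4.8% of them, against 7.37% of all IDs. For recovery against dark 0 members passed, with 0% of all IDs, and 15 had an unadjusted p under 0.05, 6.55% of them, against 8.22% of all IDs. DESeq2 also called 0 members in both, against 0.193% and 0.497% of the IDs it gave an adjusted p, and it gave none to 22 members in the second test. At an unadjusted p under 0.05 DESeq2 had 13 and 17 members, against 8.26% and 8.98% of all IDs. The precision limits this: the median SE of the difference in stage change was 0.50 in the first range and 0.41 in the second for dark against pre, in the first range larger than the median offset. These differences use the same libraries as the offset.

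The median difference of the stage changes, mutant minus wild type, was near 0 in both ranges. For dark against pre it was -0.06 in the first range and 0.06 in the second, against 0.01 over all IDs tested. For recovery against dark it was -0.08 and -0.04, against -0.04. The width between the quartiles was 0.74 in the first and 0.71 in the second range for dark against pre, and 0.74 over all IDs. Taken pool by pool, the median dark response of first-range members was -0.01 ± 0.24 (SD, n = 4) on the log2 scale in the wild type and 0.05 ± 0.10 (SD, n = 3) in the mutant, and that of second-range members -0.17 ± 0.10 and -0.09 ± 0.09. In both ranges the genotypes differed by less than the spread between pools of one genotype.

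Members were also grouped by their dark response, to set their offsets side by side. In the second range, the 33 members that rose in darkness in both genotypes had median offsets of -0.93, -0.77, -0.69 and -0.86 over pre, 24hr, dark and recovery. The 40 that fell had -0.65, -0.88, -0.72 and -0.83, and the 48 called in neither had -0.69, -0.73, -0.83 and -0.77. In the first range the 14 that rose had -0.38, -0.24, -0.29 and -0.40, the 20 that fell had -0.24, -0.39, -0.23 and -0.41, and the 33 called in neither had -0.39, -0.47, -0.38 and -0.53. In both ranges the risers had the lower median at pre and the fallers at 24hr, the other sample of the same leaf. The classes were set by the same dark and pre libraries, so these medians are a description.

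The uncovered leaf and the covered leaf give separate libraries, so the offset at pre and 24hr can be set beside the genotype difference in recovery against dark. The 31 members with an uncovered-leaf offset below -1 had a median difference of -0.44 (quartiles -0.70 and 0.09). The 111 between -1 and -0.5 had -0.07, the 74 between -0.5 and 0 had -0.03, and the 13 above 0 had 0.72 (quartiles 0.12 and 1.45). Pearson's r was 0.377 and Spearman's rho 0.227 across first-range members, and 0.163 and 0.351 across second-range members. Over all 229 members they were 0.214 and 0.253, and over all IDs tested 0.164 and 0.184. The points are genes of the same libraries, share plants across the leaves, and are not independent.

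The members with the lowest unadjusted p of the genotype by stage tests did not pass adjustment. BraA03000085, in the first range, had 0.482, 38.4, 44.7 and 149 CPM at dark in wild-type pools 3 to 6 and 2.85, 10.9 and 0.114 CPM in mutant pools 3 to 5. Its pre levels were 3.47, 0.554, 0.683 and 0.365 CPM in the wild type and 1.15, 10.3 and 1.89 CPM in the mutant. Wild-type pools 4 to 6 were high at dark, and wild-type pool 3 was within the mutant range. The dark response was lower in the mutant by a log2 difference of -5.72 (SE 1.51, adjusted p = 0.33 by edgeR), and over the alternatives run the adjusted p was between 0.074 and 0.97.

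BraA03000360, in the second range, had the lowest p for recovery against dark. It had 90.5, 96.6, 110 and 82.5 CPM at pre in the wild type and 41.2, 37.9 and 38.8 CPM in the mutant, with no overlap. At dark the levels overlapped, at 16.2, 17.3, 14.7 and 8.77 CPM and at 19.4, 11.0 and 9.26 CPM. At recovery they were apart again, at 49.0, 64.1, 92.9 and 43.6 CPM and at 31.0, 21.1 and 20.7 CPM. Its offset went from -1.27 (pre) to -0.09 (dark) and -1.36 (recovery), and the difference in the recovery change was -1.27 (SE 0.36, adjusted p = 0.26 by edgeR), with adjusted p between 0.088 and 0.68 over the alternatives.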

How the data were processed

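Poly(A) RNA libraries were sequenced as single reads of 80 bases, per the labels' protocols. The submitters' processing notes name bcl2fastq 2.17.1.14, Trimmomatic 0.36, Bowtie2 and HTSeq, and the genome build, annotation and use of strand are not given in the sources used here, so counts of near-identical, overlapping or antisense genes are uncertain. The deposited table holds raw counts, whole numbers per gene ID and library, with 0 columns left without a sample. CPM were computed here from these counts.

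In R 4.3.3, filterByExpr of edgeR 4.0.16 kept 24992 IDs, library sizes were scaled by TMM, and one quasi-likelihood model of 8 group means was fitted to 28 libraries. The SE is the absolute log2 change divided by the square root of F, and is approximate. The common biological coefficient of variation was 0.365. Log2 CPM used a prior count of 2. The fit was tested on simulated data. P-values measure the spread between pools of plants. Counts of 0 were read against a floor of 3 counts per library, which covers counting error only.

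The members, ranges and tests were chosen with earlier results of these data known. Named genes were the largest rise and fall in darkness shared by both genotypes without overlap of libraries, the lowest and highest offset among members averaging at least 10 CPM in a genotype, the lowest p of each genotype by stage test, and the members at the limits of the ranges and the threshold. The bins, blocks and counts without 1 wild-type pool were chosen after seeing the data. No reference names or sequences matched the IDs (0 matches).

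Per the labels' protocols, same-numbered libraries of one genotype share their plants, and their deviations from group means had a median correlation across members of 0.0955 (42 pairs), against -0.0344 for different pools. A correlation across members leaves out any shift that all of them share. It therefore does not fully measure differences in level between pools, such as those of the first range. Alternatives were DESeq2 1.42.0, RLE scaling, no filter, a member minimum of 5 CPM and a replicate block. A fit limited to the groups compared and omission of each pool in turn were also run. The block was the plant pool for stage changes and their genotype differences. For the offset it was the replicate number, shared across genotypes, since each pool belongs to a single genotype.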

Additional observations from a re-analysis of the deposited data

Results flagged for a closer look

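Of 48 sets of 4 wild-type libraries examined for named members, 3 held a library far from the other three by Dixon's criterion, which chance meets in about 1 in 20 sets. BraA03000085 had 3.47 CPM in wild-type pool 3 at pre, above the 0.365 to 0.683 CPM of the other pools. At recovery BraA03000085 had 0.206 CPM in the same pool, below the 1.53 to 1.62 CPM of the others. BraA03000302 had 17.3 CPM in wild-type pool 4 at dark, above the 0.401 to 2.76 CPM of the others. The sets did not cover every member named in the text. BraA03000149 and BraA03000283, also described as resting on single libraries, were not among those flagged. The causes were not tested.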

How the results depend on the processing

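The counts of members changed in dark against pre and recovery against dark stayed within 1.5 times the reported ones under every alternative run. The lowest was 84 (dark against pre in the mutant, without mutant replicate 5), with 41.7% of all IDs called. The highest was 150 (recovery against dark in the wild type, replicate block), with 60.9% of all IDs. In these contrasts no change of the genes named for large dark responses reversed or lost its call. The untested offsets of BraA03000117 and BraA03000291 changed sign when some single replicates were left out. In recovery against pre, BraA03000127 lost its mutant call in the fit with only the groups compared. BraA03000149 and BraA03000022 lost theirs there and with no filter on low counts. Recovery against pre was the least stable. In the wild type the reported 7 members (4.43% of all IDs tested) became 11 by DESeq2 (7.29%) and 21 with the replicate block (6.87%). Leaving out 1 replicate gave 2 to 11, where 0.679% to 5.44% of all IDs were called. In the mutant the reported 3 (2.18% of all IDs) became 1 with a member minimum of 5 CPM. With no filter on low counts they became 1 (1.2%), with only the groups compared 0 (0.00899%), and with the replicate block 5 (3.38%). When 1 replicate was left out they became 1 to 2, where 0.326% to 2.31% of all IDs were called. DESeq2 called 1 wild-type change between 24hr and pre. The replicate block changed no other call count by over 1.5 times, and the genotype by stage count stayed at 0 under every alternative run. The first-range median of the genotype by stage difference in recovery against dark was between -0.165 and 0.0065 when 1 replicate was left out, and the second-range median between -0.078 and 0.0503. The fit with only the groups compared was not run for the offset, which uses all groups. The causes were not tested. Across genotypes the replicate numbers name different plants. Same-numbered libraries of one stage in different genotypes had a median correlation of 0.258 over 12 pairs, the lowest of -0.0519. For different numbers the median was -0.107 over 36 pairs. Same-numbered libraries were thus more alike across genotypes, and the cause of this was not tested. They were not treated as pairs, except in the replicate block for the offset. The shallowest libraries, of 4928822 and 5221760 counts, hold few counts for members near 1 CPM, and calls on such members rest on few counts.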
